A study of Drosophila melanogaster with 8 samples.

Results

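Cuticle protein genes were taken as a set of late epidermal genes, and their start sites were compared with the open chromatin of primordial germ cells (PGCs) and of somatic cells from late *Drosophila melanogaster* embryos. The set held every protein-coding gene of the release 6 annotation whose symbol begins with Cpr, Lcp, Twdl or Ccp followed by a number or a capital letter. These were 115 of 13945 protein-coding genes on chromosome arms 2L, 2R, 3L, 3R, 4 and X, namely 70 Cpr, 15 Lcp, 23 Twdl and 7 Ccp genes. The rule used only the symbol and no measured value. Both cell types came from 1 strain, of genotype Vas::EGFP, kept at 25 °C. Cells of embryos from an overnight collection were sorted by flow cytometry into GFP-positive cells, the PGCs, and GFP-negative cells, the somatic cells. ATAC-seq, in which a transposase cuts and tags accessible DNA, was run on 2 replicates of each, and each cell type has 1 deposited list of peaks called on the average of its 2 replicates. The GFP-negative sample is a mixture of all the other tissues of the embryo, so the epidermis is an unknown share of it, and fewer open copies in every cell cannot be told apart from fewer cells with open chromatin. Averaging has removed the spread between replicates, and the lists do not give the depth of a sample, so the comparisons below are descriptions without a test. The ovary samples of the series were not used here.

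The insect cuticle is a layered coat of chitin fibres and structural proteins that the epidermis and the tracheal cells secrete at their outer face. The first larval cuticle is laid down in the last part of embryogenesis, and a new one follows at each moult, with different members of these families used at different stages and body regions. Most Cpr and Lcp proteins, and the Ccp84A proteins, carry a form of the Rebers-Riddiford sequence, which binds chitin. The Tweedle proteins (Twdl) form a separate family that shapes the larval body. PGCs are the founders of the germline and make no cuticle.

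The sequences just before the start sites are shown first, since the peaks described below lie away from them. Each line gives the 100 bases before a start site, read 5′ to 3′ on the gene's strand from the release 6 assembly (dm6), with TATAAA in capitals. Ccp84Aa (chr3R:6703984-6704083, + strand) and Ccp84Ab (chr3R:6702878-6702977, − strand) are divergent neighbours with the highest peaks in cuticle coding sequence. TwdlB (chr3R:26623544-26623643, − strand) and TwdlJ (chr3R:26629818-26629917, + strand) are Tweedle genes with somatic peaks, and Cpr30F (chr2L:9933164-9933263, − strand) had a PGC peak only. Lcp65Ab1 (chr3L:6149448-6149547, + strand) and Lcp65Ab2 (chr3L:6146574-6146673, + strand) encode the same protein in a gene group without any peak.
Ccp84Aa: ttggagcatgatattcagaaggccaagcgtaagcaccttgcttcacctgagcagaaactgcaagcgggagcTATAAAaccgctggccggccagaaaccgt
Ccp84Ab: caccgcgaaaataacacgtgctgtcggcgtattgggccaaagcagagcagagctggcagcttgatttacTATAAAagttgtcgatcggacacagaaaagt
TwdlB: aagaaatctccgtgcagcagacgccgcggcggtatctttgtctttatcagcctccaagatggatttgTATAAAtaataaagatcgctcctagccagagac
TwdlJ: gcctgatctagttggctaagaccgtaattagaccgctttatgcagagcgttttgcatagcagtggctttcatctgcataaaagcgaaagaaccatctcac
Cpr30F: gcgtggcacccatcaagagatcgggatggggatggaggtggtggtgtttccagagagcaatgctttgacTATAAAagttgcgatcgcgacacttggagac
Lcp65Ab1: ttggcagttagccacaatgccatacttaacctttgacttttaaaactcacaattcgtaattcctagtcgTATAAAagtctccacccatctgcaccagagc
Lcp65Ab2: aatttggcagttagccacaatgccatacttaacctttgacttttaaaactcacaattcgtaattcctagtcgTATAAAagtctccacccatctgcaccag

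All but TwdlJ of these 7 stretches hold TATAAA, the core of the TATA box, at which the general transcription machinery binds shortly before many tightly regulated start sites. On the forward strand between 45 and 16 bases before the start, TATAAA stood at 69 of the 115 cuticle genes (60%), against 8.75% of all protein-coding genes and 9.24% of odorant and gustatory receptor genes, a set of 119 genes that are also used in few cell types. Where it was present its median distance from the start was 29 bases. It was found before 71.4% of the 28 cuticle genes with a peak in either list and before 56.3% of the 87 without one. In the window from 250 bases before to 50 after the start, searched on both strands, the other sequences were about as frequent as over all genes or rarer. GAGAG, the core bound by GAGA factor, was in 30.4% of cuticle windows and 29.7% of all windows. TCAGT, the fly initiator core, was in 53.9% and 51.5%. TATCGATA, the DRE bound by DREF and common at housekeeping genes, was in 0.870% and 9.36%. AACCGGTT, bound by Grainy head, was in 0 of the cuticle windows and 0.753% of all windows, and CAAGGTCA, bound by Ftz-f1, in 0 and 0.495%.

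Few cuticle genes had a peak near a start site in either cell type, and the shares in the cell types were alike. A gene was counted when any base of a peak lay within 500 bp of an annotated transcript start. In PGCs 18 of the 115 genes had such a peak (15.7%, exact 95% binomial interval 9.55 to 23.6%), against 51.8% of all protein-coding genes. In somatic cells 17 had one (14.8%, interval 8.85 to 22.6%), against 31.2% of all genes. The intervals cover counting error only. Over all genes the PGC share was thus well above the somatic share, whereas over the cuticle genes the 2 shares differed by 1 gene. The receptor genes resembled the cuticle genes, with 10.9% in PGCs and 9.24% in somatic cells, and the 92 genes of cytoplasmic ribosomal proteins, which every cell uses, stood at 91.3% and 54.3%.

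**Figure D1:**
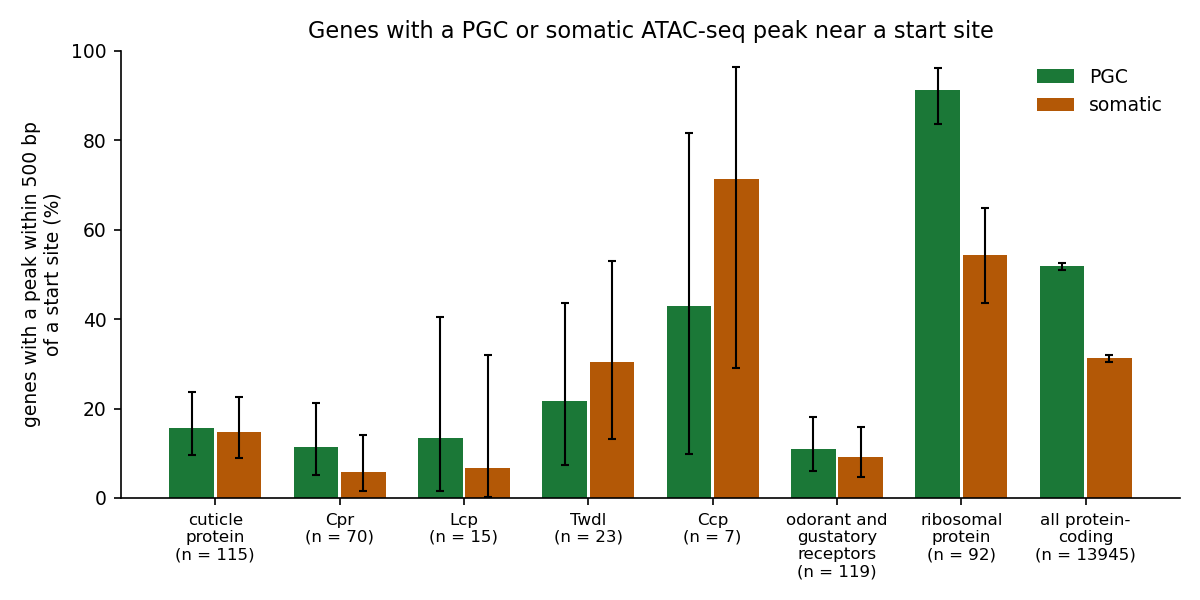
Share of genes (%, vertical axis) with a PGC peak (green) or a somatic peak (orange) within 500 bp of a start site, for the cuticle protein genes, their 4 families, both comparison sets and all protein-coding genes; lines are exact 95% binomial intervals. The cuticle genes stand at 15.7% and 14.8% and all genes at 51.8% and 31.2%; the Ccp bars rest on 7 genes.

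The genes with a peak were in part different in the 2 lists. A peak in both lists was found at 7 cuticle genes, which are 38.9% of those with a PGC peak and 41.2% of those with a somatic peak. Over all genes the same shares were 53.1% and 88.1%. A further 11 cuticle genes had a PGC peak only, 10 a somatic peak only, and 87 (75.7%) had neither, against 44.5% of all genes. A somatic peak without a PGC peak was thus seen at 8.70% of cuticle genes and at 3.72% of all genes. These shares are not like for like, since only a gene without a PGC peak can be counted. A PGC peak was at 15.7% of cuticle genes and at 51.8% of all genes. Whether the difference between 8.70% and 3.72% exceeds the spread between replicates cannot be tested on averaged lists.

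Cuticle genes often stand in tight rows, and many genes of the whole annotation share a promoter region with a neighbour or have several start sites. Among genes with 1 start site and no other protein-coding start within 1000 bp, a restriction chosen after seeing the data, 17 of 96 cuticle genes (17.7%) had a PGC peak and 14 (14.6%) carried a somatic one. The 6110 such genes of the whole annotation stood at 32.0% and 19.5%. In percentage points the gap between cuticle genes and the whole annotation was smaller there in both lists, and in the somatic list little of it was left.

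The peaks at cuticle genes were low. Peak height is the RPKM coverage at the summit, the highest point of the peak, and neither list holds a peak below 50 RPKM. The highest PGC peak of each of the 18 genes had a median of 55.4 RPKM, between 50.3 and 125 RPKM, against a median of 94.9 RPKM over the 7217 genes with a PGC peak. It was below the median of all genes at 17 of the 18 and below their lower quartile of 67.6 RPKM at 15. In somatic cells the 17 genes had a median of 56.4 RPKM, between 50.9 and 85.8 RPKM, against 62.0 RPKM over 4353 genes. Here 14 of the 17 were below the median of all genes and 7 below their lower quartile of 55 RPKM. A PGC peak of at least 80 RPKM was present at 2 cuticle genes (1.74%), against 32.0% of all genes, and a somatic peak of that height at 1 (0.870%), against 7.16%. Of the 6110 genes with 1 start site and no other within 1000 bp, 14.8% had a PGC peak of that height and 3.78% a somatic one. Their PGC median was 76.6 RPKM, and their somatic median was slightly below that of all genes. The 96 such cuticle genes had medians of 55.1 and 55.8 RPKM, with 1.04% at 80 RPKM or more in each list. The gaps in share and in PGC median were thus smaller there, and the cuticle genes stayed lower. Many of the calls at cuticle genes therefore sit close to the height at which the lists begin.

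**Figure D2:**
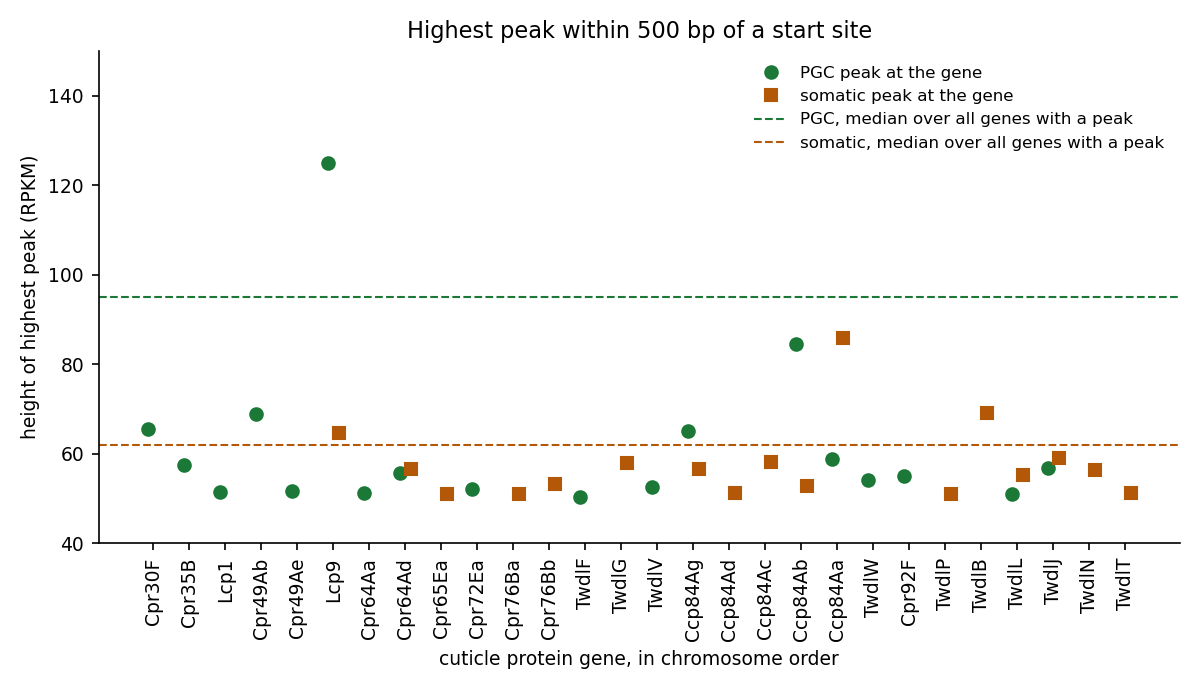
Height of the highest peak (RPKM, vertical axis) within 500 bp of a start site at the 28 cuticle protein genes with a PGC peak (green circles) or a somatic peak (orange squares), in chromosome order; dashed lines are the medians over all genes with a peak, 94.9 RPKM for the PGC list and 62.0 RPKM for the somatic list. Lcp9 alone lies above the PGC line, and Ccp84Aa, TwdlB and Lcp9 lie above the somatic line.

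The 2 larval cuticle protein genes with a PGC peak were Lcp9 and Lcp1. Lcp9 (chr2R:24779979-24780428) had the highest PGC peak of the set, 124.9 RPKM, beside a second one of 58.1 RPKM, and somatic peaks of 64.6 and 52.2 RPKM. It lies between egg and CG3594, and both higher peaks had their summit in an exon of CG3594, within 500 bp of the start of that gene, so they cannot be assigned to Lcp9. Lcp1 had a PGC peak of 51.5 RPKM and no somatic peak. Without peaks that are also near the start of another gene, 17 cuticle genes had a PGC peak and 16 carried a somatic one, which in both lists removes Lcp9.

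The Ccp84A genes, 7 neighbours on 3R, had the largest share of genes with a peak, 3 in PGCs and 5 in somatic cells. These are 42.9% (interval 9.90 to 81.6%) and 71.4% (interval 29.0 to 96.3%), against 51.8% and 31.2% of all genes. Near the start of Ccp84Aa the PGC list had 58.8 RPKM and the somatic list 85.8 RPKM, the highest somatic peak of the set and higher than 91.3% of all somatic peaks. A further PGC peak of 97.6 RPKM overlapped that somatic peak but began just past 500 bp from the start, so the count above does not use it. The difference between the lists at Ccp84Aa is thus one of peak borders. In RPKM the PGC peak there was the taller. However, the lists differ in height, with medians of 62.1 RPKM (PGC) and 56.9 RPKM (somatic) over all their peaks. At Ccp84Ab the PGC peak reached 84.6 RPKM and the overlapping somatic peak 52.7 RPKM. Ccp84Ag had overlapping peaks, of 65.1 RPKM in the PGC list and 56.6 RPKM in the somatic list. Ccp84Ac and Ccp84Ad had somatic peaks only, of 58.1 and 51.3 RPKM, and Ccp84Ae and Ccp84Af had none within 500 bp. Ccp84Ae had a somatic peak of 56.1 RPKM farther inside the gene, 608 bp from its start.

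Among the Twdl genes 5 of 23 had a PGC peak (21.7%) and 7 carried a somatic one (30.4%, interval 13.2 to 52.9%). Over all genes these shares were 51.8% and 31.2%, so the somatic share of this family was near that of all genes. TwdlB had the second highest somatic peak of the set, 69.0 RPKM, and no PGC peak. TwdlJ had overlapping peaks of 56.7 RPKM (PGC) and 59.1 RPKM (somatic), and TwdlL peaks of 50.9 and 55.3 RPKM at different places. TwdlF, TwdlV and TwdlW had PGC peaks only, between 50.3 and 54.2 RPKM, and TwdlG, TwdlN, TwdlP and TwdlT somatic peaks only, between 50.9 and 57.9 RPKM. No Tweedle gene reached 80 RPKM in either list.

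The Cpr genes, the largest family, had the lowest shares with a peak, 8 of 70 in PGCs (11.4%) and 4 of 70 in somatic cells (5.71%), next to 13.3% and 6.67% of the 15 Lcp genes. Only Cpr64Ad had both, with a PGC height of 55.7 RPKM and a somatic height of 56.5 RPKM, and these peaks stood side by side without overlap. Cpr49Ab (68.9 RPKM), Cpr30F (65.4 RPKM) and Cpr35B (57.5 RPKM) led the 7 with a PGC peak only. The 3 with a somatic peak only were Cpr76Bb (53.2 RPKM), Cpr76Ba (51.0 RPKM) and Cpr65Ea (50.9 RPKM). By chromosome arm, 9 of 31 genes on 3R had a PGC peak and 12 carried a somatic one, against 3 and 4 of 45 on 3L and 0 and 0 of 7 on X. Over all genes the arms did not differ in that way. There 51.2% of genes on 3R and 52.5% on 3L held a PGC peak, and 31.9% and 34.1% a somatic one. Of the cuticle genes on 3R 38.7% had a somatic peak (interval 21.8 to 57.8%), which is not below the share of all genes there. On 3R, 19 of the 31 cuticle genes stand in 2 rows of neighbours, Ccp84A and TwdlM to TwdlD. These 19 hold 5 of the genes with a PGC peak and 10 of those with a somatic one. On 3L, 17 of the 45 stand in 1 row without any peak, from Lcp65Ag3 to Cpr65Az. The contrast of arms thus rests in part on single rows. On X the shares over all genes were 52.4% and 22.6%, and the interval of 0 of 7 reaches 41.0%.

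No start site of a cuticle gene was covered by a peak in either list. With an upper limit of 3 counts, this 0 of 115 allows a share of up to 2.61%. Over all protein-coding genes a PGC peak covered a start site at 37.2% and a somatic peak at 12.2%, and for ribosomal protein genes these shares were 85.9% and 18.5%. Among the genes with a single isolated start they were 20.1% and 6.55%. The receptor genes were again close to the cuticle genes, at 0 and 0.840%.

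Instead, most peaks at cuticle genes lay downstream, in the coding sequence of the gene itself. In PGCs 14 of the 19 peaks (73.7%) had their summit there, and in somatic cells 16 of 18 (88.9%). For the peaks at all genes these shares were 13.6% and 24.0%, and at genes with an isolated start 21.1% and 36.3%. Gene length differs between these sets, with a lower median for cuticle genes than for all genes. How much of the 500 bp after a start is coding sequence was not compared, so the part of gene layout in these shares was not tested. The median summit was 228 bp downstream of the nearest start in PGCs and 354 bp downstream in somatic cells, whereas over all genes it was 33 bp and 11 bp upstream. The exceptions in PGCs were the Lcp9 peaks, an upstream peak each at Cpr49Ae (51.6 RPKM) and Cpr92F (55.1 RPKM), and the peak of TwdlL, whose summit was in an exon of the neighbour TwdlO. In somatic cells they were the Lcp9 peak in CG3594 and that of TwdlT, in an intron of RYa-R. No peak at a cuticle gene contained TATAAA, in 0 of 19 PGC peaks and 0 of 18 somatic peaks. With an upper limit of 3 counts this allows shares of up to 15.8% and 16.7%. Among all peaks of each list it was in 9.23% and 7.64%. These shares are not like for like, since a wider peak can hold TATAAA more readily. The peaks at cuticle genes had median widths of 50 bp in PGCs and 150 bp in somatic cells, and those at all genes 300 and 200 bp. The parts of width and position in the absence of TATAAA were not tested.

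**Figure D3:**
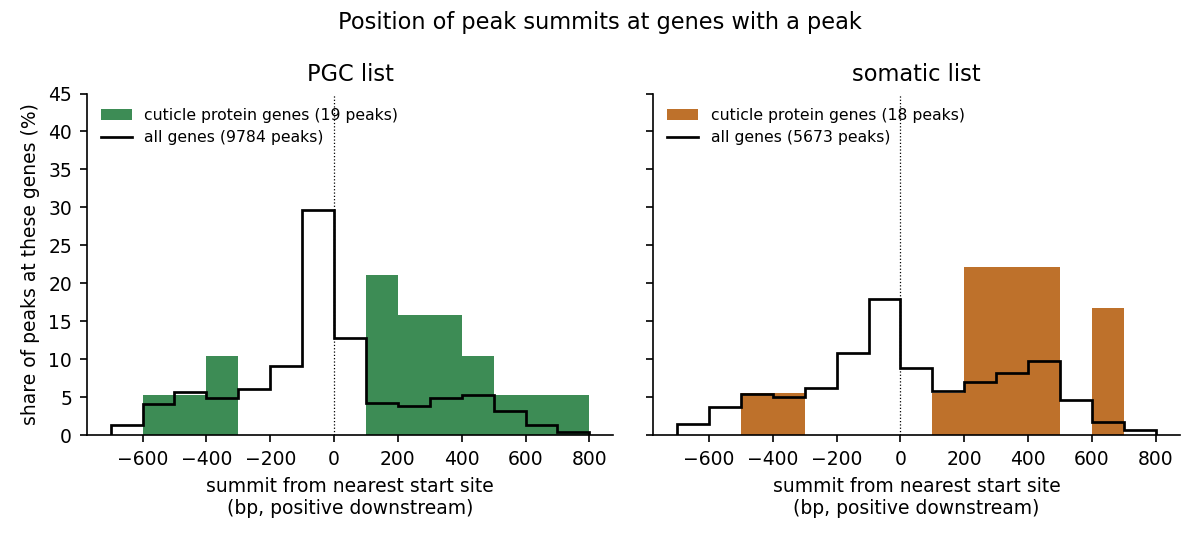
Share of peaks (%, vertical axis) by distance of the summit from the nearest start site (bp, positive downstream, in steps of 100 bp) for cuticle protein genes (filled) and all genes (black line), PGC list on the left and somatic list on the right. The filled bars of the 19 PGC and 18 somatic peaks lie mainly downstream and are empty next to the start, where the black line is highest.

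Peaks inside coding sequence were also common over all genes. Counted anywhere in the gene, 28 cuticle genes (24.3%) had a PGC summit in their coding sequence and 29 (25.2%) a somatic one, against 28.7% and 31.6% of all genes, whose coding sequences are longer. Per length the cuticle genes had more, with 460 PGC summits and 421 somatic summits per Mb of coding sequence, against 242 and 290 per Mb over all genes. The highest coding peak of each such gene had a median height of 56.2 RPKM for cuticle genes and 56.3 RPKM for all genes in PGCs, and of 55.3 and 56.1 RPKM in somatic cells.

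Base composition was described for the genes and for their peaks. The coding sequence of cuticle genes had a median GC content of 59.1%, against 53.9% over all genes, and the Ccp family had 65%. Cuticle genes with a peak had a median of 60%, and those without one 58.3%. In the 201 bp around the summits GC was 59.7% at cuticle genes in PGCs and 59.2% in somatic cells, near that of their coding sequence. At all genes it was 46.8% and 50.7%, but only 13.6% and 24.0% of those summits lay in coding sequence, so the positions compared are unlike. The windows before the starts were less rich in GC, with a median of 44.0% for cuticle genes and 38.0% for all genes. The peaks at receptor genes also lay mostly in coding sequence, 12 of 15 in PGCs and 10 of 15 in somatic cells. Receptor coding sequence had a median of 47.3% GC, and the 201 bp around these summits were richer, at 54.7% in PGCs and 52.2% in somatic cells. The part of base composition in these peaks was not tested. Of the 19 PGC peaks 10 (52.6%) had the smallest width in the lists, 50 bp, against 11.7% of the PGC peaks at all genes and 16.8% at genes with an isolated start. In the somatic list 5 of 18 (27.8%) did, near the 23.1% at all genes and the 26.5% at genes with an isolated start.

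The coding stretches under 3 of the highest peaks are shown for their repeats and for what they share with a sister gene. Each is 150 bases of coding sequence around the summit, on the gene's strand (dm6), with the longest run that also occurs in the sister gene or its 500 bp flanks in capitals. The first is under the somatic peak of Ccp84Aa (chr3R:6704651-6704800, + strand), the second under the PGC peak of Ccp84Ab (chr3R:6702101-6702250, − strand) and the third under the somatic peak of TwdlB (chr3R:26623151-26623300, − strand), whose sister is TwdlL.
Ccp84Aa: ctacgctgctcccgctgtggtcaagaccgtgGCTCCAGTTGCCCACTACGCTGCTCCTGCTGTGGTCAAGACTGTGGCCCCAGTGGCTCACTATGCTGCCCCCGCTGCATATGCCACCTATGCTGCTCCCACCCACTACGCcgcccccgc
Ccp84Ab: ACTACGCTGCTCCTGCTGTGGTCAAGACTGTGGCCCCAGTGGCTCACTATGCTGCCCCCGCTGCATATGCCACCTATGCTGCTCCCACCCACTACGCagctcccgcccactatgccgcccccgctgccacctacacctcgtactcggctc
TwdlB: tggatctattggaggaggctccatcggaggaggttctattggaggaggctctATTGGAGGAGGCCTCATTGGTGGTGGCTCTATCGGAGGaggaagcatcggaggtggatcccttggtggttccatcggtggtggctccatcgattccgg
The shared run was 110 bases in the Ccp84Aa stretch, 97 bases in that of Ccp84Ab and 38 bases in that of TwdlB. The GC content was 65.3%, 64.7% and 57.3%.

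Such sister genes were common in the set, and they bear on how reads can be placed. The proteins of 15 cuticle genes were at least 90% identical to that of another one. Lcp65Ab1 and Lcp65Ab2 encode identical proteins and share an unbroken run of 1016 bp, counted over each gene with 500 bp on both sides. Cpr65Ax1 and Cpr65Ax2, also identical in protein, share 1185 bp, and Lcp65Ag1 and Lcp65Ag2 share 393 bp, with Lcp65Ag3 99% identical to both. For Ccp84Aa and Ccp84Ab (91.9% identity) the run was 171 bp, for TwdlB and TwdlL (96.5%) 137 bp, for Lcp1 and Lcp2 (90.0%) 86 bp, and for Cpr67Fa1 and Cpr67Fa2 (97.8%) 67 bp. A read wholly inside such a run has no unique position, and the names of the lists say that unique positions were required. By the paper's methods the reads were paired-end and, before trimming, longer than the runs of 137, 86 and 67 bp. Of the other 100 genes 14 (14.0%) had a PGC peak and 13 carried a somatic one, close to the counts per gene in the whole set. For the 7 Lcp65A and Cpr65Ax genes among these copies, all without a peak, the part of the shared runs in that result was not tested.

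Away from the 500 bp window the nearest peak was far. From the start of a cuticle gene it lay at a median of 3904 bp in PGCs and 4621 bp in somatic cells, against 404 bp and 1558 bp over all genes. It was more than 10 kb away at 23 cuticle genes (20.0%) in PGCs and at 39 (33.9%) in somatic cells, against 9.95% and 15.7% of all genes. The longest distance was 27324 bp in PGCs, at Cpr5C, and 87931 bp in somatic cells, at Cpr11A. The receptor genes had medians of 5164 bp and 5089 bp.

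**Figure D4:**
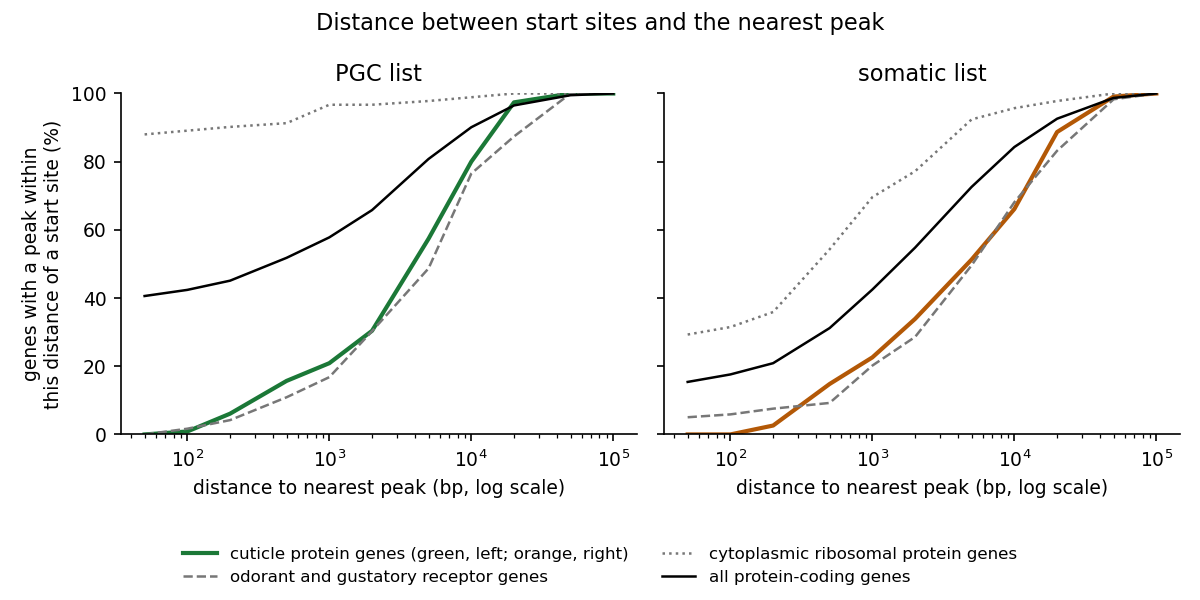
Share of genes (%, vertical axis) with a peak within a given distance of a start site (bp, log scale), for cuticle protein genes (coloured), receptor genes (dashed), ribosomal protein genes (dotted) and all protein-coding genes (black), PGC list on the left and somatic list on the right. The curves of cuticle and receptor genes run together below that of all genes, with medians of 3904 bp and 4621 bp for cuticle genes.

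Most cuticle genes stand in tandem groups, and the peaks were unevenly spread over them. Neighbouring cuticle genes no more than 20 kb apart formed 15 groups of at least 3, with 84 of the 115 genes. Of these 84, 13 had a PGC peak and 15 carried a somatic one, and of the 31 other genes 5 and 2. Peaks covered 1.02% of the 235394 bp of these groups in PGCs and 1.59% in somatic cells, against 4.2% and 2.93% of the chromosomes as a whole. The order of the lists was thus reversed, with more covered sequence in somatic cells inside the groups and more in PGCs over the chromosomes.

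The largest group, 17 Lcp65A and Cpr65A genes in 31.2 kb from Lcp65Ag3 to Cpr65Az on 3L, contained no peak of either list. The nearest PGC peaks lay 4786 bp before it, with 163.1 RPKM, and 2412 bp after it, with 53.3 RPKM. The nearest somatic peaks lay 4536 bp before it, with 50.5 RPKM, and 1312 bp after it, with 52.8 RPKM. This group holds the near-identical Lcp65A and Cpr65Ax copies named above. The groups Cpr67Fa1 to Cpr67Fb and Cpr78Ca to Cpr78Cc on 3L and TwdlX to TwdlZ on X also contained none.

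The Ccp84A group stood at the other end. Its 18.2 kb on 3R held 4 PGC peaks, up to 97.6 RPKM, and 7 somatic peaks, up to 85.8 RPKM, which covered 6.05% and 6.6% of it, more than the chromosome averages of both lists. The 12 Twdl genes from TwdlM to TwdlD, also on 3R, held 4 PGC peaks and 5 somatic peaks in 21.9 kb, covering 1.37% and 3.87%. Together these 2 groups have 19 genes, of which 5 had a PGC peak and 10 carried a somatic one. In the other 96 cuticle genes 13 (13.5%) had a PGC peak and 7 (7.29%) carried a somatic one, so that 10 of the 17 genes with a somatic peak came from 2 places. The Cpr76B group on 3L, with 4 genes in 20.7 kb, held 3 PGC peaks, up to 54.7 RPKM, and 6 somatic peaks, up to 60.3 RPKM. Cpr62Ba to Cpr62Bc held no PGC peak and 1 somatic peak of 70.5 RPKM, inside Cpr62Bc.

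**Figure D5:**
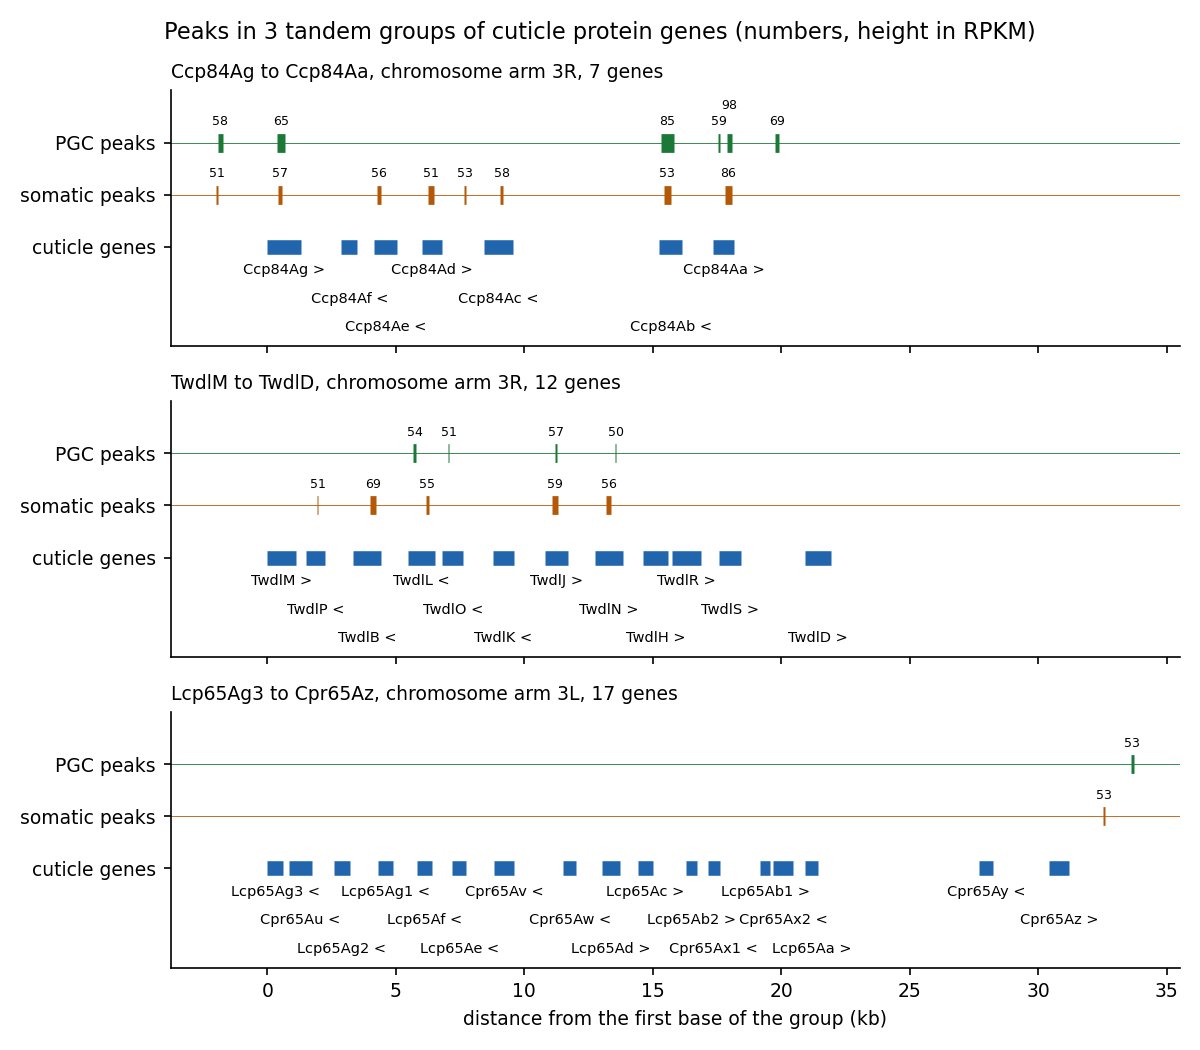
Peaks of both lists over 3 tandem groups of cuticle protein genes, by distance from the first base of the group (kb), drawn to scale, with peaks shown up to 3 kb on each side; arrowheads after the names give the strand and numbers above peaks their height in RPKM. The Ccp84A group holds 4 PGC and 7 somatic peaks, the group from TwdlM to TwdlD 4 and 5, and the group from Lcp65Ag3 to Cpr65Az none.

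Other genes of the cuticle were counted in short lists by their role, so the intervals are wide. Of 14 further structural cuticle proteins, 6 had a PGC peak (42.9%, interval 17.7 to 71.1%) and 5 carried a somatic one (35.7%, interval 12.8 to 64.9%). The PGC interval holds the 51.8% over all genes and not the 15.7% of the set. The somatic interval holds both the 31.2% over all genes and the 14.8% of the set. Their median heights were 57.3 and 54.9 RPKM with none at 80 RPKM, close to the medians of the set. Among them resilin, the rubber-like protein of wing hinges and tendons, stood at 54.2 RPKM in the PGC list and 60.3 RPKM in the somatic list. Of 18 genes for chitin synthesis and assembly, 6 had a PGC peak (33.3%, interval 13.3 to 59.0%) and 4 carried a somatic one (22.2%, interval 6.41 to 47.6%). Their medians were 106 and 55.8 RPKM. kkv, the chitin synthase of the epidermis and trachea, had 94.7 RPKM in PGCs and no somatic peak, and serp, a chitin deacetylase, had none in PGCs and 54.0 RPKM in somatic cells. Of 8 tanning and pigment genes, 3 had a PGC peak (37.5%, interval 8.52 to 75.5%) and 1 carried a somatic one (12.5%, interval 0.316 to 52.7%). In the chitin and tanning lists every interval holds both the share over all genes and that of the set.

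Regulators of the epidermis and of moulting had a peak far more often than the genes of the set. Of 18 such genes 15 had a PGC peak (83.3%) and 9 carried a somatic one (50%), with medians of 117 and 83.7 RPKM. grh, which encodes Grainy head, an activator of epidermal genes, stood at 152.8 RPKM in the PGC list and 80.8 RPKM in the somatic list. ftz-f1, a nuclear receptor needed at moults, reached 330.9 RPKM in PGCs, against 58.4 RPKM in somatic cells, and EcR, the ecdysone receptor, 264.4 and 134.2 RPKM. Over all genes the same shares were 51.8% and 31.2%, so the somatic interval holds the share over all genes and the PGC interval lies above it. A gene with several start sites has more chances to be counted, and the part of their number here was not tested.

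Markers of the cell types were counted in the same way. Every epidermis marker also stands in the chitin, tanning or regulator list above, so those genes are counted again here. Germ cell markers had a PGC peak at 11 of 11 genes (interval 71.5 to 100%), against 51.8% of all genes. A somatic peak was at 4 of them (36.4%, interval 10.9 to 69.2%), near the 31.2% over all genes. The marker vas, whose product was the sorting label, had 157.6 RPKM in PGCs and no somatic peak. ovo, with 116.6 RPKM in PGCs and no somatic peak, is counted both among these markers and among the regulators above. Epidermis markers had a PGC peak at 4 of 10 genes and a somatic peak at 2 (20.0%, interval 2.52 to 55.6%, which holds the 31.2% over all genes), and 8 of 8 markers of trachea, muscle, gut and neurons or glia had a PGC peak, with 6 having a somatic one. The highest of these, at trh, a regulator of tracheal cells, had 742.3 RPKM in PGCs, against 237.3 RPKM in somatic cells. The part of other cells among the sorted PGCs in their peaks was not tested. The part of the mixture of tissues in the somatic result was not tested.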

How the data were processed

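ATAC-seq of PGCs and of somatic cells of late Vas::EGFP embryos had 2 replicates each. Adapters were trimmed by the authors with cutadapt 4.2 and reads aligned to release 6 of the genome with Bowtie2 2.5.1. Duplicates were removed with SAMtools 1.17, and RPKM coverage came from deepTools 3.5.4. The replicates were then averaged, and peaks called with MACS2 bdgpeakcall at a cutoff set by hand. The stated minimum length was 60 bp, yet the lists hold peaks of 50 bp. A read shift for the transposase is not given in the sources used here. The deposited score of a peak is 10 times its height in RPKM, and was divided by 10; the deposited summit position, listed as another number, gave the summit. RPKM scales by mapped reads, so a library with more reads outside peaks has lower peaks. Depth per sample is not in the lists.

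The lists, 19504 PGC and 17411 somatic peaks on the arms used, were joined to Ensembl 115 start sites and the release 6 genome in Python 3.11.15 with numpy 2.4.6, scipy 1.17.1, Biopython 1.88 and matplotlib 3.10.9. Shares have exact (Clopper-Pearson) 95% intervals. The limits given for 0 covered start sites and 0 peaks with TATAAA are instead 3 counts over the total, an approximate bound. Steps were tested on simulated data, where 2000 of 2000 planted peaks and 1000 of 1000 motifs were recovered.

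Genes named are those with a peak in both lists, the 10 highest per list and near-identical copies. Other names were chosen after their values were seen. Members and lists were chosen with earlier results of these data known. nanos, Eip93F and speck are the annotation's symbols for nos, E93 and Dat. Alternatives changed the distance, the height, the width and the genes counted.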

Additional observations from a re-analysis of the deposited data

How the results depend on the processing

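The count of cuticle genes moved most with the distance and the height required. Within 250 bp, the PGC list gave 8 and the somatic list 4 (all genes 46.5% and 22.6%), and within 1000 bp 24 and 26 (57.8% and 42.5%). With peaks of at least 80 RPKM, 2 and 1 were left, and with the 5000 highest peaks of each list 1 and 3 (all genes 29.1% and 14.5%). Over the gene body with 1000 bp on both sides, 36 and 41 had one (67.6% and 57.0%). With peaks wider than 50 bp, chosen after seeing the data, 8 and 12 did (47.7% and 25.1%). At 1000 bp, over the gene body, with the 5000 highest peaks and with the wider peaks, more cuticle genes had a somatic than a PGC peak, and at 500 bp 1 fewer did. The share in cuticle genes stayed below that of all genes under each of these settings, in both lists. The counts with the summit within 500 bp (15 and 14), the gene's 5′ end only (18 and 16) and without peaks near other genes (17 and 16) were within 1.5 times the main ones, and the median heights moved by less than their interval under the 5 settings tried for each. No paired analysis was possible because both replicates were averaged before the peaks were called, and for the same reason no replicate could be left out. The lists begin at 50 RPKM, so accessibility below that height is not seen.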

Other observations

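Farther inside cuticle genes there were peaks that the 500 bp window does not reach. The highest was at Cpr73D, with 119.6 RPKM in PGCs, against 61.8 RPKM in somatic cells, at the same summit, 2213 bp downstream of the start and outside the coding sequence. This was the highest PGC peak inside any of the 115 genes, and it was higher than the median of 94.9 RPKM over genes with a PGC peak near a start. Cpr50Ca, a long gene, held 4 PGC peaks of 50.9 to 58.1 RPKM and 3 somatic peaks of 53.1 to 58.3 RPKM. Cpr97Ea had PGC peaks of 64.3 and 60.5 RPKM in its coding sequence and a somatic peak of 53.4 RPKM. Cpr62Bc had a somatic peak of 70.5 RPKM in its coding sequence, 1008 bp from the start, and no PGC peak. These genes were chosen after their values were seen.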
